A study of Mus musculus with 6 samples.

Results

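The genes described here encode the enzymes that write methylation on lysine 4 of histone H3 (H3K4) and the core subunits they share, measured in the brains of mice deficient for Kdm5c, an X-linked enzyme that erases that mark. They were chosen by name from the rows of the expression table, 10 genes of 43346 rows: the SET1 methyltransferase genes Setd1a and Setd1b, the MLL methyltransferase genes Kmt2a, Kmt2b, Kmt2c and Kmt2d, the divergent relative Kmt2e, and the core subunit genes Ash2l, Wdr5 and Rbbp5. All 10 had enough reads to be tested, among 15127 tested genes. RNA sequencing was done on the brain of 6 adult male mice on a mixed C57BL/6 and 129 (50:50) background, 3 labelled Kdm5c deficient and 3 wild type. Deficient and wild-type mice were littermates from heterozygous deficient C57BL/6 mothers and wild-type 129 fathers. The sources used here do not describe the Kdm5c allele or the brain region. In whole tissue, fewer cells of a type and less RNA per cell cannot be told apart.

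The libraries held 20221675 to 24555412 counts, and mice of 1 genotype differed by more than sampling noise (chi-square per gene from 3.55 to 17.6). Kdm5c itself had 73.9, 65.5 and 78.9 CPM in the deficient mice, and 77.6, 82.8 and 84.0 CPM in wild type, where CPM gives the reads of a gene relative to the scaled library total. These overlapped, with a log2 difference of -0.16 ± 0.07 (SE, adjusted p = 0.196 by edgeR), and with the allele not described, the level of Kdm5c could not be used to check the genotype labels. Without deficient mouse 2 the log2 difference was -0.09 (adjusted p = 0.406 by edgeR).

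In mammals H3K4 methyltransferases of the SET1 and MLL families work inside complexes known as COMPASS. The catalytic SET domain is weak alone and becomes active when bound by the core of Wdr5, Rbbp5, Ash2l and Dpy30. Trimethylation of H3K4 marks active promoters and is laid down mainly by the Setd1a and Setd1b complexes, with Kmt2a and Kmt2b acting at selected promoters. Kmt2c and Kmt2d place monomethylation at enhancers. Loss of 1 copy of several of these genes causes neurodevelopmental disorders in people, such as Kabuki syndrome for KMT2D and Wiedemann-Steiner syndrome for KMT2A.

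The 6 SET1 and MLL methyltransferase genes were each lower in every deficient mouse than in any wild-type mouse, while the 3 core subunit genes and Kmt2e were not separated by genotype. Setd1a fell by 22.7%, Kmt2b fell by 21.8% and Kmt2d fell by 25.6%, and these 3 passed the threshold, an adjusted p under 0.05 over all tested genes. Setd1b, Kmt2a and Kmt2c had differences of -26.4%, -12.6% and -20.1% without passing it. Over all tested genes 2.48% were called lower and 2.45% higher, and 16.0% were lower without overlap between the genotypes. The median log2 fold change of the 10 genes was -0.26, and that of all tested genes was 0.00119. Levels are in CPM, and differences are log2 fold changes of deficient over wild type from edgeR's quasi-likelihood test.

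**Figure D1:**
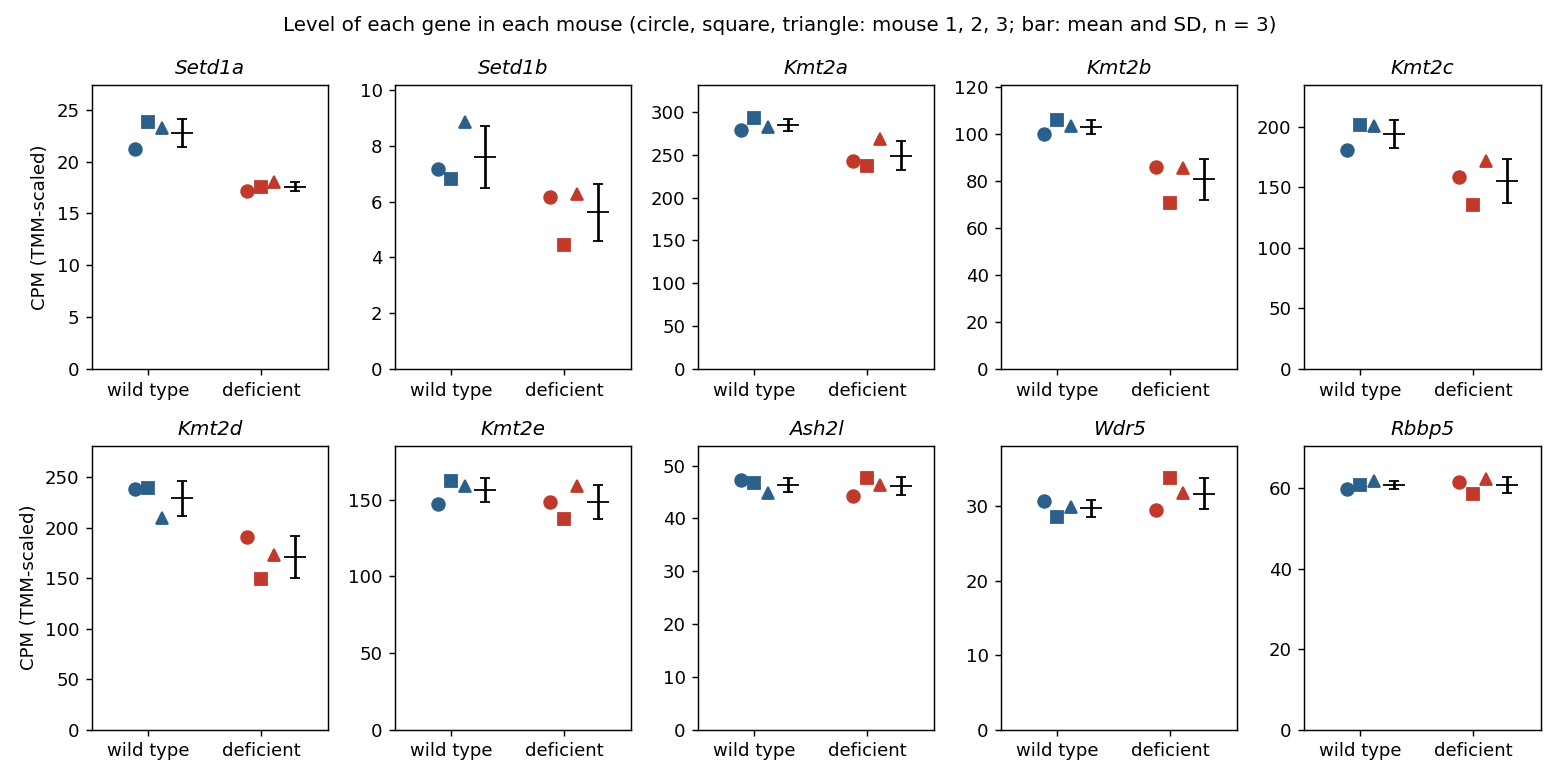
Level of each of the 10 genes in each mouse, in CPM on a vertical axis that starts at 0, with wild-type mice in blue, deficient mice in red, and bars for the mean and SD of 3 mice. The deficient points lie below all wild-type points for Setd1a, Setd1b and Kmt2a to Kmt2d, and the genotypes overlap for Kmt2e, Ash2l, Wdr5 and Rbbp5.

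Promoter sequences were matched in RefSeq (GRCm38.p6) for 6 of the 10 genes (Setd1a, Kmt2a, Kmt2c, Kmt2d, Wdr5 and Rbbp5). CpG dinucleotides are marked below. As background, Kmt2a, Kmt2b and the SET1 complex subunit Cxxc1 carry a CXXC domain that binds unmethylated CpG. Neither binding nor CpG methylation at these windows was tested. Below are the 250 bases before the start of Kmt2d (chr15:98871206-98871455, minus strand), of its closest relative Kmt2c (chr5:25498784-25499033, minus strand) and of Rbbp5 (chr1:132477117-132477366, plus strand), whose RNA did not separate the genotypes. They are written 5′ to 3′ on the gene's strand with each CG in capitals.
Kmt2d: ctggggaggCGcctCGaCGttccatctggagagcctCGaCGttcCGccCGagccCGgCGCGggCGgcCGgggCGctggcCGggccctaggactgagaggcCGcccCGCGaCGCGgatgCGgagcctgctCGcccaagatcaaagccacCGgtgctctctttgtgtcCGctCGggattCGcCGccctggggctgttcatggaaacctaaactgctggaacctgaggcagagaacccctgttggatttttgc
Kmt2c: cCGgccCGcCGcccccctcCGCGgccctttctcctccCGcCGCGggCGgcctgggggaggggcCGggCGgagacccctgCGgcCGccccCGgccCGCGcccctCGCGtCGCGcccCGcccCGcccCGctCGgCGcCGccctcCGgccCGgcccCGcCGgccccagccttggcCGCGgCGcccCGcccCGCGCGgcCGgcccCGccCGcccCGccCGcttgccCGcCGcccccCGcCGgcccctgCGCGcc
Rbbp5: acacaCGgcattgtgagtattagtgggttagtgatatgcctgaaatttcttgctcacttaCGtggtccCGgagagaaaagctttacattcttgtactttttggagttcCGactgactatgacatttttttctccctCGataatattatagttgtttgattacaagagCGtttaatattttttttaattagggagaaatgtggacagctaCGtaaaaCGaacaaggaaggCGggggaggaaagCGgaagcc

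Kmt2c had 48 CpG in this window, Kmt2a 29, Kmt2d 26 and Setd1a 25, against 12 for Wdr5 and 10 for Rbbp5. The median over 32851 RefSeq promoters was 6, and 37.8% had at least 10. GC content was 91.6% for Kmt2c and 40.0% for Rbbp5, at a median of 52.4% over all promoters. The GC box GGGCGG, searched on both strands with overlapping matches counted, occurred 12 times for Kmt2c, 4 times each for Kmt2a and Kmt2d, 1 time for Wdr5 and not in the windows of Setd1a or Rbbp5. It occurs at least 1 time in 32.7% of all promoters. The RefSeq start of Setd1a lies inside its GENCODE gene model. No window of the 6 genes held CCGGAAGT (2.88% of promoters), CACGTG (6.02%), CCAAT (33.8%) or TATAAA (12.4%) on either strand. These are matches of letters and describe the windows only.

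Setd1a encodes a catalytic subunit of the SET1 complexes. Its level was 17.2, 17.5 and 18.0 CPM in the deficient mice and 21.2, 23.8 and 23.3 CPM in the wild-type mice. The deficient mice lay close together, and the gap between the highest of them and the lowest wild-type mouse was 13.9% of the wild-type mean. The means were 17.6 ± 0.447 and 22.8 ± 1.36 CPM (SD, n = 3 each), so the log2 difference was -0.37 ± 0.07 (SE) and passed at an adjusted p of 0.0266 (edgeR). The gene (ENSMUSG00000042308.14) lies on chromosome 7 at 127776670 to 127800122 on GRCm38. Gm49388, a protein-coding gene annotated on the same strand, covers 51.8% of its exon bases, so the reads given to Setd1a are uncertain.

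Setd1b is the partner enzyme in the alternative SET1 complex and was the least abundant of the 10. Reads numbered 131, 106 and 136 against 177, 139 and 203 in wild type, or 6.16, 4.45 and 6.26 against 7.16, 6.80 and 8.88 CPM. Deficient mouse 2 was lowest and wild-type mouse 3 highest, and the genotypes did not overlap. Its log2 fold change was the most negative of the 10 at -0.44, but its SE of 0.16 was the largest, and the adjusted p was 0.139 by edgeR. At such counts the counting error alone was 8.34% of the level, against 1.30% for Kmt2a. Setd1b (ENSMUSG00000038384.16) lies on chromosome 5 at 123142193 to 123168629.

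Kmt2d, the enhancer methyltransferase mutated in Kabuki syndrome, fell most among the genes past the threshold. The deficient mice had 190.3, 148.8 and 172.6 CPM and the wild-type mice 238.6, 239.2 and 209.4 CPM. All 3 deficient mice lay below wild-type mouse 3, itself lower than the other wild-type mice, with a gap of 8.34% of the wild-type mean. The means were 170.5 ± 20.8 and 229.1 ± 17.1 CPM (SD, n = 3 each), and the log2 fold change was -0.43 ± 0.09 (SE, adjusted p = 0.0380 by edgeR). Kmt2d (ENSMUSG00000048154.17, chromosome 15 at 98831669 to 98871204) has the longest transcript of the 10, 19823 nt, and its exons overlap no other annotated gene.

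Kmt2b, the gene of a promoter-bound methyltransferase linked to dystonia in people, fell from 103.3 ± 3.01 to 80.8 ± 8.83 CPM (SD, n = 3 each). Wild-type values were 100.1, 106.0 and 103.7 CPM, and deficient values were 86.0, 70.6 and 85.8 CPM. Deficient mice 1 and 3 were nearly level and mouse 2 lay well below them. The difference was -0.35 ± 0.08 (log2, SE, adjusted p = 0.0391 by edgeR), and the gap between the genotypes was 13.6% of the wild-type mean. Kmt2b (ENSMUSG00000006307.16) lies on chromosome 7 at 30568858 to 30588726, and its exons overlap no other annotated gene.

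Kmt2c, the closest relative of Kmt2d, showed the same order without passing the threshold. It had 158.4, 135.2 and 171.8 CPM for deficient animals versus 181.0, 201.1 and 200.8 CPM for wild type. The highest deficient mouse came within 4.72% of the wild-type mean of the lowest wild-type mouse. Its log2 fold change was -0.32 ± 0.09 (SE, adjusted p = 0.0663 by edgeR), with a 95% interval of -0.52 to -0.13. The gene (ENSMUSG00000038056.15) lies on chromosome 5 at 25271798 to 25498783, and an antisense transcript overlaps 1.35% of its exon bases.

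Kmt2a, the founding MLL gene, rearranged in leukaemias, had the smallest difference of the 6. Its levels were 242.6, 236.8 and 267.9 CPM in the deficient mice, and 279.0, 293.1 and 283.0 CPM in wild type. Deficient mouse 3 approached the wild-type range to within 3.87% of the wild-type mean. The log2 fold change was -0.19 ± 0.06 (SE, adjusted p = 0.0837 by edgeR), with a 95% interval of -0.32 to -0.07. Kmt2a (ENSMUSG00000002028.13) lies on chromosome 9 at 44803355 to 44881296, where an antisense gene overlaps 2.27% of its exon bases.

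Kmt2e has a SET domain but is known for lacking clear methyltransferase activity, and its protein is thought to act by reading H3K4 methylation. Its levels were 148.5, 137.1 and 159.1 CPM for deficient animals versus 147.2, 162.3 and 158.7 CPM for wild type. The genotypes overlapped, and the log2 fold change of -0.07 ± 0.06 (SE) had an adjusted p of 0.511 by edgeR and a 95% interval of -0.22 to 0.07. It lies on chromosome 5 at 23434441 to 23504235 (ENSMUSG00000029004.15), and exons of the antisense neighbour Srpk2 overlap 9.31% of its exon bases.

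The shared core showed no difference that passed the test. Rbbp5, which binds the SET domain together with Ash2l, had 61.7, 58.6 and 62.3 CPM in the deficient mice, and 59.8, 60.9 and 61.9 CPM in wild type. All 6 values lay close together, and the 95% interval of the change ran from -7.16% to 7.79% (adjusted p = 0.996 by edgeR). Ash2l, which with Dpy30 stimulates the methyltransferases, had 44.3, 47.7 and 46.4 against 47.3, 46.8 and 44.7 CPM. Its genotypes overlapped too, with an interval of -8.28% to 8.32% (adjusted p = 0.966 by edgeR). Wdr5, the docking platform for the methyltransferases and for other chromatin complexes, had 29.5, 33.7 and 31.8 CPM for deficient animals versus 30.7, 28.5 and 29.9 CPM for wild type. Deficient mouse 2 was highest and wild-type mouse 2 lowest, and the log2 fold change of 0.09 ± 0.07 (SE) had an interval of -4.04% to 18.4% (adjusted p = 0.423 by edgeR). No other annotated gene overlaps the exons of Rbbp5 (ENSMUSG00000026439.14, chromosome 1 at 132477365 to 132505659), Ash2l (ENSMUSG00000031575.18, chromosome 8 at 25815996 to 25847694) or Wdr5 (ENSMUSG00000026917.15, chromosome 2 at 27515157 to 27536535).

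**Figure D2:**
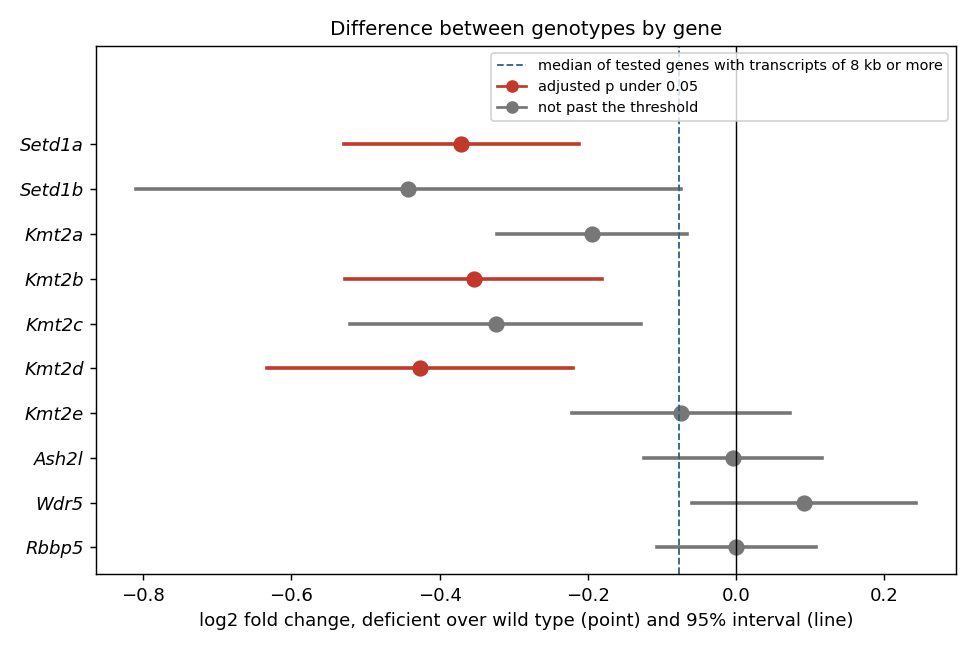
Log2 fold change of deficient over wild type (points) with its 95% interval (lines) for the 10 genes; red marks an adjusted p under 0.05, and the dashed line is the median of tested genes with transcripts of 8 kb or more, -0.08. The intervals of Setd1a, Setd1b and Kmt2a to Kmt2d lie below 0, and those of Kmt2e, Ash2l, Wdr5 and Rbbp5 include 0.

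When CPM values were permuted between mice (exact, two-sided), p was 0.1 for each of the 6 methyltransferase genes, the smallest value that 3 against 3 mice allow. The same permutation gave 0.5 for Kmt2e, 0.8 for Ash2l, 0.3 for Wdr5 and 1 for Rbbp5. Turned to deficient over wild type, the log2 fold changes of the authors' deposited table were -0.32 for Setd1a, -0.30 for Setd1b, -0.18 for Kmt2a, -0.32 for Kmt2b, -0.29 for Kmt2c and -0.38 for Kmt2d. The unadjusted p-values in the authors' deposited table were 3.43e-06 for Kmt2d, 3.82e-05 for Kmt2b, 0.000276 for Kmt2c, 0.000452 for Setd1a, 0.00304 for Kmt2a and 0.0227 for Setd1b. That table comes from the same 6 libraries.

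Ratios of reads within a mouse do not depend on how the libraries are scaled. For each Rbbp5 read there were 3.09, 2.54 and 2.77 Kmt2d reads in deficient mice against 3.99, 3.93 and 3.38 in wild type. Kmt2b reads per Rbbp5 read were 1.39, 1.205 and 1.38 against 1.67, 1.74 and 1.68. For Setd1a the ratios were 0.278, 0.299 and 0.290 against 0.355, 0.391 and 0.376. The genotypes were separated in each of these ratios, as they were for Setd1b, Kmt2a and Kmt2c over Rbbp5. Taken over the summed reads of Ash2l, Wdr5 and Rbbp5, the ratios of all 6 genes were also lower without overlap in deficient mice. These ratios use the same reads as the levels above, so they are not separate evidence. The share of all tested genes separated in such ratios was not computed. The 6 genes also remained separated in levels under median-ratio, upper quartile and no scaling, where 15.9%, 16.0% and 16.9% of all tested genes were lower without overlap.

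The 6 methyltransferase genes varied together across the 6 mice. Pearson's r of log2 CPM between pairs of them ran from 0.74 to 0.97 with a median of 0.88 (15 pairs over 6 mice that share their libraries and the genotype split). Between a methyltransferase gene and a core subunit gene it ran from -0.83 to 0.60 with a median of -0.17 (18 pairs). Kmt2e lay between, at 0.55 to 0.87 with the 6 genes. Deficient mouse 2 was lowest for 5 of the 6 genes and deficient mouse 1 for Setd1a, and wild-type mouse 2 was highest for 5 and wild-type mouse 3 for Setd1b. The mean log2 deviation of the 6 genes from the mean of all mice was -0.11, -0.34 and -0.08 in deficient brains against 0.13, 0.20 and 0.21 in wild type. For the 3 core genes it was -0.03, 0.04 and 0.03 against 0.0045, -0.03 and -0.02.

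Deficient mouse 2 also stood apart in regional markers. The summed level of 10 cerebellar neuron markers was 1716, 383 and 1303 CPM in the deficient mice, and 1869, 1964 and 2109 CPM in wild type. All 10 had negative log2 fold changes, 9 were lower without overlap, none passed the threshold, and none was at 0 in any mouse. Their first marker Gabra6, a GABA receptor subunit gene of granule cells, had 116.4, 5.50 and 89.2 CPM against 131.5, 130.6 and 149.96 CPM. Without deficient mouse 2 the log2 fold changes were -0.37 for Setd1a, -0.34 for Kmt2d and -0.26 for Kmt2b, with adjusted p of 0.0331, 0.0281 and 0.0193 by edgeR. Those of Kmt2c, Kmt2a and Setd1b were -0.23, -0.16 and -0.30 (adjusted p = 0.0647, 0.142 and 0.276 by edgeR). In the 5 remaining mice the cerebellar sum was still lower in both deficient mice than in the wild-type mice, and its part in the differences was not tested.

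**Figure D3:**
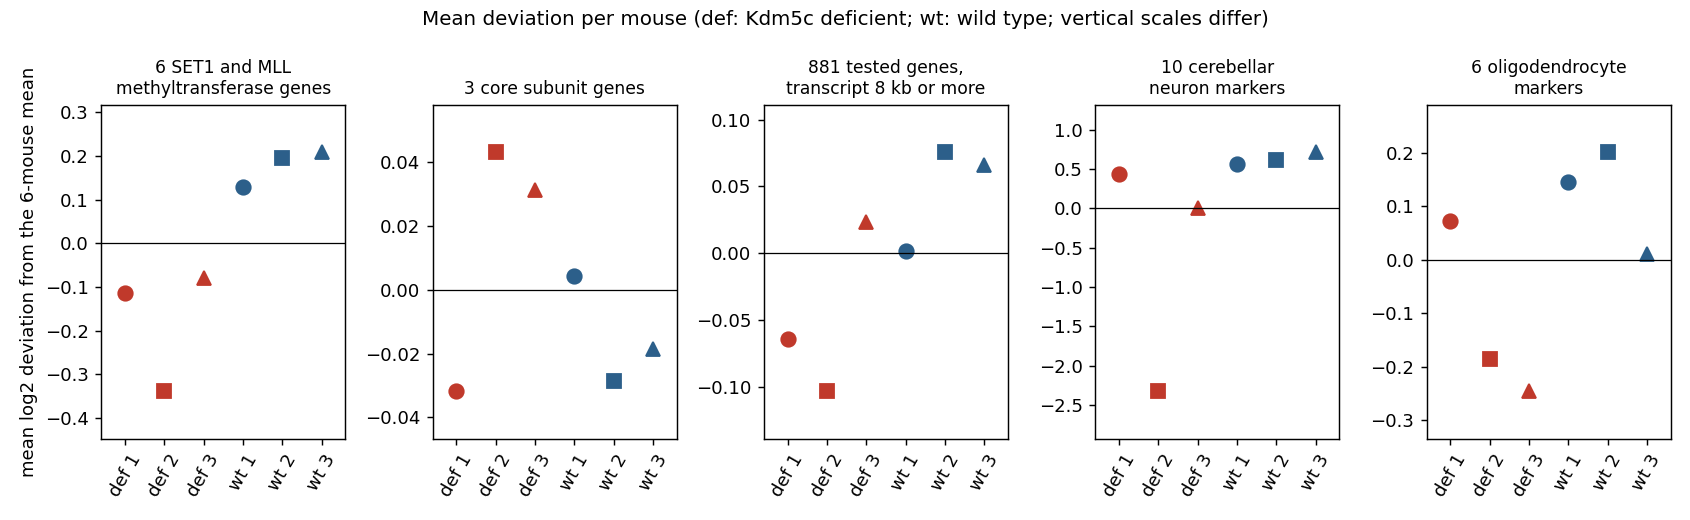
Mean log2 deviation from the mean of the 6 mice, per mouse, for the 6 SET1 and MLL genes, the 3 core subunit genes, the tested genes with long transcripts, the cerebellar markers and the oligodendrocyte markers; red is deficient, blue is wild type, and the vertical scales differ between panels. Deficient mouse 2 is lowest for the methyltransferase genes (-0.34), the long transcripts (-0.10) and the cerebellar markers (-2.32).

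Among the other marker lists, the summed level of 6 oligodendrocyte markers was lower without overlap in deficient mice, at 5394 to 6841 against 6998 to 7916 CPM. Sums of microglial (5 markers, 147 to 167 against 135 to 140 CPM), oligodendrocyte precursor (3 markers, 99.9 to 105 against 89.3 to 91.4 CPM) and meningeal markers (4 markers, 76.5 to 84.3 against 67.3 to 75.7 CPM) were higher without overlap. These sums follow their most abundant genes. In the mean log2 deviation over each list, the genotypes overlapped for the oligodendrocyte, microglial and oligodendrocyte precursor markers. For oligodendrocytes deficient mouse 1 was at 0.07 and wild-type mouse 3 at 0.01. The meningeal mean deviation was lower in deficient mice, opposite to its sum (-0.01, -0.15 and -0.06 against 0.11, -0.0047 and 0.11). Pdgfra, the receptor gene that marks oligodendrocyte precursors, makes up most of its list's sum and rose by 0.27 ± 0.05 (log2, SE, adjusted p = 0.0241 by edgeR), while Cspg4 of the same list was at -0.04 (adjusted p = 0.799) and Gpr17 had too few reads to be tested. The first markers of the other 3 lists did not pass, at -0.37 for the myelin gene Mbp, 0.05 for the microglial receptor gene Cx3cr1 and 0.08 for the collagen gene Col1a1. Lum and Gja1, which passed, are named here after their values were seen. The meningeal proteoglycan gene Lum fell by 1.13 on the log2 scale (adjusted p = 0.0114 by edgeR), against its list's sum, which Col1a2 and Dcn carry. The astrocyte gap junction gene Gja1 rose by 0.23 (log2, adjusted p = 0.0311 by edgeR).

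The 6 excitatory forebrain markers all had positive log2 fold changes, with a median of 0.33; 5 had an unadjusted p under 0.05 and none passed the threshold. Their sums were 3802, 5224 and 4732 CPM in the deficient mice, and 3654, 3409 and 3953 CPM in wild type. Deficient mouse 2, the lowest for most of the methyltransferase genes, was highest here, and the genotypes overlapped. Sums of neuronal, inhibitory, astrocyte, vascular, choroid plexus and blood markers overlapped as well. Neuronal markers, which define the labelled tissue, summed to between 5274 and 6128 CPM. The part of these cell types in the differences was not tested.

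Transcript length moved with the genotype difference as well. Tested genes whose longest transcript is 8 kb or more, 881 in number, had a median log2 fold change of -0.08, and 7.04% of them were called lower and 1.36% higher, against 0.654% and 3.72% of genes under 2 kb. Their mean log2 deviation was -0.06, -0.10 and 0.02 in deficient brains and 0.0018, 0.08 and 0.07 in wild type; deficient mouse 3 thus exceeded wild-type mouse 1. Setd1b, Kmt2a, Kmt2b, Kmt2c and Kmt2d belong to this class. Within it 6.47% of genes had a lower log2 fold change than Setd1b, 6.92% than Kmt2d, 10.3% than Kmt2b, 12.6% than Kmt2c and 25.0% than Kmt2a. Setd1a and Kmt2e belong to the 1244 genes of 6 to 8 kb, where 6.11% and 41.6% were lower than they were. Lower without overlap between the genotypes were 27.9% of genes of 8 kb or more and 23.6% of those of 6 to 8 kb. Under 2 kb the share was 8.51%. The core subunit genes have transcripts of 2890 to 3702 nt.

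With offsets that take out a smooth trend on transcript length and GC content in each mouse, Setd1a and Kmt2b still passed, at -0.34 and -0.31 (adjusted p = 0.0372 and 0.0227 by edgeR). Kmt2d lost its call at -0.29 ± 0.08 (SE, adjusted p = 0.0720). Kmt2c moved to -0.21, Setd1b to -0.40 and Kmt2a to -0.07 (adjusted p = 0.0894, 0.129 and 0.386). After these offsets the 6 genes were still lower in every deficient mouse than in any wild-type mouse, as were 15.1% of all tested genes. RNA integrity was not analysed here.

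The calls depended on which mice were used. Setd1a, Kmt2b and Kmt2d each passed without deficient mouse 1 or 2 and lost the call without deficient mouse 3 or any 1 wild-type mouse. Over all tested genes 375 were called lower with all mice, and 997 and 324 without deficient mouse 1 or 2. Without deficient mouse 3 or wild-type mouse 1, 2 or 3, 65, 6, 6 and 42 were called lower. The loss of calls was thus seen over all tested genes. In these 6 fits the log2 fold changes ran from -0.42 to -0.34 for Setd1a, from -0.40 to -0.26 for Kmt2b and from -0.51 to -0.34 for Kmt2d. Adjusted p was at most 0.125, 0.161 and 0.162 by edgeR. With DESeq2 Kmt2a and Kmt2c passed beside these 3 genes (adjusted p = 0.0386 and 0.00716), and Kmt2c also passed with no low-count filter (adjusted p = 0.0336 by edgeR). Over 16 alternatives for each of the 6 genes, all 96 log2 fold changes were below 0 and 32 had an adjusted p under 0.05. In the same 16 alternatives the calls over all tested genes, in either direction, ran from 44 of 15249 to 2098 of 15379. These fits reuse the same libraries and are not separate evidence. Genes without overlap between the genotypes keep their sign when 1 mouse is left out. Counts over all tested genes under several of these settings are given below.

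**Figure D4:**
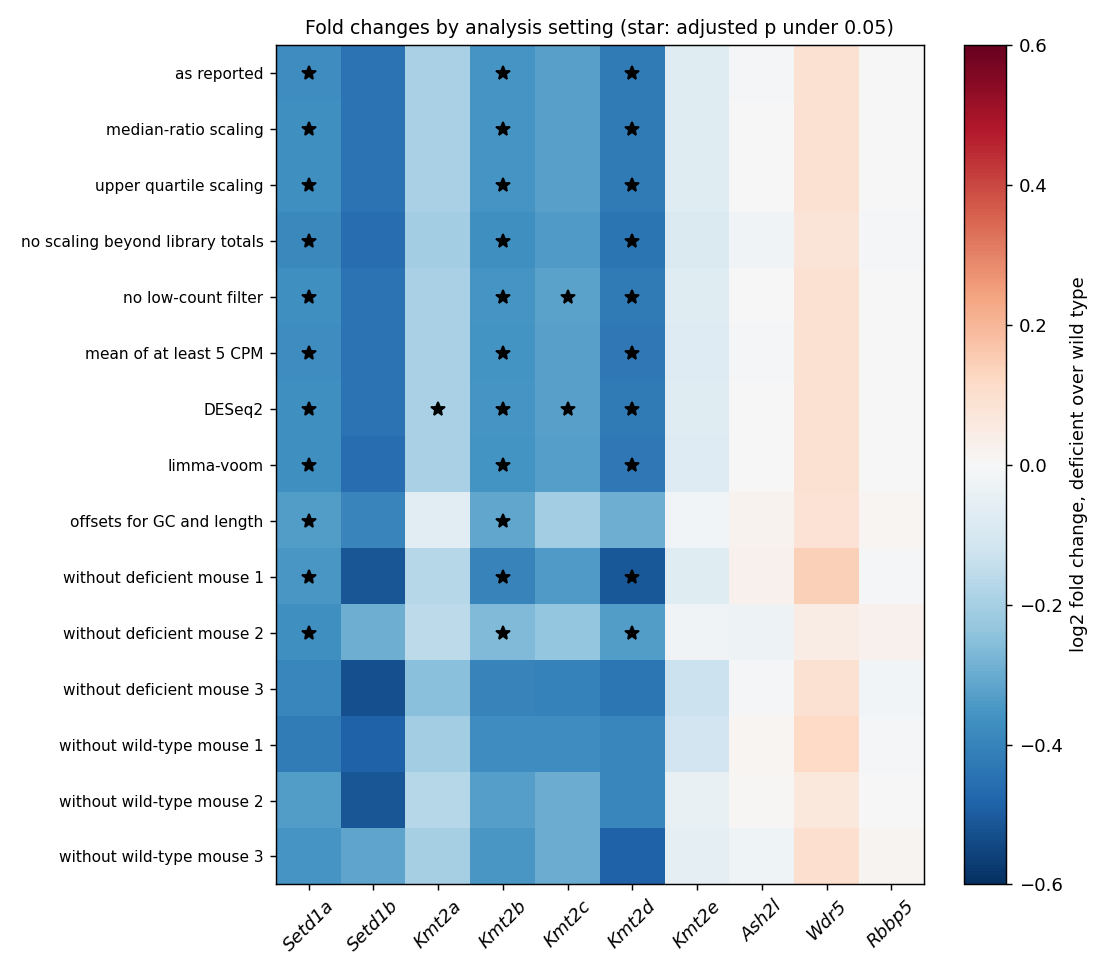
Log2 fold change of deficient over wild type for the 10 genes (columns) under the analysis settings without a replicate block (rows), from blue (lower) to red (higher), with a star where the adjusted p was under 0.05. Columns Setd1a, Setd1b and Kmt2a to Kmt2d are blue in every row; the stars of Setd1a, Kmt2b and Kmt2d are missing in the 4 fits without deficient mouse 3 or a wild-type mouse, and Kmt2d also lacks one with length and GC offsets. The 2 fits with the replicate number as a block are not drawn, and none of the 10 genes was called in them.

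Levels of different genes were compared per kilobase of exon (RPKM, which is CPM divided by exon length), within each genotype, and the order differed between them. In wild type Kmt2a was highest at 17.1 ± 0.437 RPKM (SD, n = 3), apart from Rbbp5 at 15.5 ± 0.267 and Kmt2e at 14.9 ± 0.753, whose ranges over mice overlapped. Then came Kmt2d (11.5 ± 0.857) and Kmt2b (10.8 ± 0.314) with overlapping ranges, Kmt2c (9.57 ± 0.567) and Wdr5 (8.26 ± 0.316). In deficient mice Rbbp5 (15.5 ± 0.503) stood first, but its range overlapped that of Kmt2a (14.9 ± 0.994), and that of Kmt2a overlapped that of Kmt2e (14.2 ± 1.05). Wdr5 (8.80 ± 0.582) came above Kmt2d (8.56 ± 1.04), Kmt2b (8.42 ± 0.920) and Kmt2c (7.65 ± 0.913), each overlapping the next. Ash2l, Setd1a and Setd1b were the lowest in both genotypes, each apart from its neighbours, at 5.16 ± 0.152, 3.35 ± 0.2001 and 0.631 ± 0.0919 RPKM in wild type and 5.14 ± 0.191, 2.59 ± 0.0658 and 0.466 ± 0.0843 RPKM in deficient mice. With the longest transcript in place of the union of exons and a mean over all 6 mice, Ash2l was at 12.5 and Kmt2e led at 20.8 RPKM, while Setd1a (3.11) and Setd1b (0.747) were still the lowest. The order of the middle genes therefore depends on the gene model. The level of Setd1a per kilobase is uncertain as well, because Gm49388 covers 51.8% of its exon bases on the same strand.

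None of 49 further genes of the pathway passed the test, against 4.93% of all tested genes in either direction; 29 of them had negative log2 fold changes, with a median of -0.03. At an unadjusted p under 0.05, 7 of them were lower and 5 higher, where 12.8% and 12.1% of all tested genes were, so the counts are near the background. DESeq2 called 1 of the 49 and limma-voom 0. Without deficient mouse 1, 3 passed, Pagr1a, Ing2 and Rtf1 (log2 fold changes of -0.68, 0.42 and 0.21, adjusted p = 0.00850, 0.0214 and 0.0379 by edgeR). That fit called 2098 of 15379 tested genes, a larger share than in the fit with all mice. Among 13 other COMPASS subunits the smallest p-values belonged to Kdm6a, the H3K27 demethylase, and Pagr1a, both subunits of the Kmt2c and Kmt2d complexes. Kdm6a had 38.0, 33.4 and 37.2 CPM for deficient animals versus 39.5, 47.6 and 44.0 CPM for wild type (log2 difference -0.27 ± 0.08, SE, adjusted p = 0.0870 by edgeR). Pagr1a had 19.3, 11.9 and 14.6 against 21.4, 21.2 and 20.8 CPM (-0.47 ± 0.15, SE, adjusted p = 0.0984 by edgeR, and 0.0303 by DESeq2). Pagr1a has a near-identical copy, Pagr1b, so its reads are uncertain. Both genes were lower without overlap, and deficient mouse 2 was lowest in each.

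Of 5 other genes linked to H3K4 methylation by SET-domain proteins, Prdm9, the methyltransferase that marks recombination sites in germ cells, had the smallest p, at 49, 37 and 51 reads in deficient brains against 67, 69 and 67 in wild type (log2 fold change -0.54 ± 0.19, SE, adjusted p = 0.136 by edgeR). Smyd2 came next at -0.06 ± 0.05 (adjusted p = 0.544). Among 6 H3K4 demethylase genes, beside Kdm5c itself, Kdm5b had 0.10 ± 0.05 (adjusted p = 0.245), and Kdm1b -0.17 ± 0.11 (adjusted p = 0.357).

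Of 14 genes for proteins that read H3K4 methylation 7 were negative, and the smallest p-values were those of the PHD finger genes Ing2 (0.32 ± 0.11, SE, adjusted p = 0.115 by edgeR) and Ing4 (-0.14 ± 0.05, adjusted p = 0.141). Without deficient mouse 2 the value of Ing2 was 0.19 (adjusted p = 0.211 by edgeR). Monoubiquitination of histone H2B, which stimulates COMPASS, and the PAF complex that couples it to transcription were covered by 11 genes. Rtf1, a PAF-associated factor, had 113.4, 121.5 and 119.1 CPM for deficient animals versus 103.5, 99.3 and 109.1 CPM for wild type. It was higher without overlap, at 0.18 ± 0.05 (SE, adjusted p = 0.0801 by edgeR). Ube2b, an H2B ubiquitin-conjugating enzyme gene, had 0.18 ± 0.08 (adjusted p = 0.186).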

How the data were processed

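Brain RNA of 6 mice was sequenced from TruSeq libraries, per the labels' protocols. The deposited table holds 1 raw count per gene symbol and mouse, per the file headers, for 43346 rows. The submitters' processing notes name DESeq2 and GRCm38. For the aligner, counting program, annotation and strandedness the entry is: not given in the sources used here. Further deposited columns hold a mean signal, a log2 fold change (wild type over deficient) and its standard error, a Wald score and a p-value that the authors did not adjust. These were used for comparison only.

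Totals ranged from 20221675 to 24555412 counts. edgeR 4.0.16 in R 4.3.3 was run on the counts: genes were filtered by expression (minimum count 10, minimum total 15), libraries scaled by trimmed mean of M-values, genotypes compared by the quasi-likelihood test without other factors, and p-values adjusted by Benjamini-Hochberg over all 15127 tested genes. Standard errors came from the F statistic. Log2 CPM used an added count of 0.5. Gene models and transcript lengths came from GENCODE M21 (GRCm38), by symbol, and promoters from RefSeq (GRCm38.p6). The script was tested on simulated data. Of 145 genes called there at an adjusted p under 0.05 by edgeR, 18 had been simulated without a change. Of genes simulated with a 1.25-fold change 22.9% were called, and of those with a 1.5-fold change 59.2%. Reader gene Sgf29 was matched through its synonym Ccdc101.

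Members, lists and the rule for named genes (all 10 members, Kdm5c, genes past the threshold and the 2 smallest p-values of each pathway list, first markers of lists whose sums did not overlap, and the 5 genes most alike in pattern) were chosen with earlier results of these data known. Alternatives were other scalings, filters and thresholds, DESeq2 1.42.0, limma-voom (limma 3.58.1), the replicate number as a block, splines (4 degrees of freedom) for length and GC content, which 95.7% of tested genes had, and leaving out each mouse. Not every marker gene that was tested is reported here.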

Additional observations from a re-analysis of the deposited data

How the results depend on the processing

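The number of the 10 genes called, 3 in the test reported, was 5 with DESeq2, 0 at an adjusted p under 0.01, 5 under 0.1, and 0 to 3 with 1 mouse left out. Over all tested genes the count of 746 became 1121 with no low-count filter, 1209 with DESeq2, 44 under 0.01 and 1792 under 0.1, and 44 to 2098 with 1 mouse left out. Of the further pathway genes, 1 was called with DESeq2 and 3 under 0.1, and 0 to 3 with 1 mouse left out. With the replicate number as a block, 0 of the 10 genes and 58 genes in all were called (Setd1a, Kmt2b and Kmt2d had adjusted p of 0.0841, 0.0997 and 0.0902 by edgeR), and with the block and the length and GC offsets 0 and 134. Same-numbered mice had correlations of deviations of -0.06, -0.05 and 0.14, and deficient mice 1 and 2 correlated best with another number. With 3 mice per genotype these values cannot decide whether equal numbers share a litter or batch. The labels do not say. Ash2l and Rbbp5 lie near 0 and changed sign. Ash2l was 0.0234 with length and GC offsets, 0.0227 with these and the block, and -0.0292 to 0.0263 with 1 mouse left out. Rbbp5 was -0.0131 without scaling, -0.0018 with a filter of 5 CPM, -1e-04 with limma-voom and -0.017 to 0.0276 with 1 mouse left out. Causes were not tested. Kdm5c was negative and uncalled in all of these fits, at -0.2252 to -0.092 with 1 mouse left out. Depth limits Setd1b, which had the fewest reads of the 10 genes. The intervals of the fold changes use standard errors from the quasi-likelihood test. They therefore include variation between mice as well as counting error, but rest on 3 mice per genotype.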

Other observations

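Among 9878 tested genes outside the lists that averaged 10 CPM or more, the 5 whose log2 CPM was most like the mean deviation of the 6 SET1 and MLL methyltransferase genes were Acox3, a peroxisomal oxidase gene (Pearson's r of 0.999 over 6 mice), the zinc finger gene Zfp652 (0.998), the lipase gene Pnpla3 (0.997), the nuclear membrane gene Tmem201 (0.997) and the RNA-binding protein gene Rbm33 (0.997). These 5 were picked as the highest of the 9878 genes, over only 6 mice. At a looser level, 345 of the 9878 had r above 0.95. Rbm33, Pnpla3 and Tmem201 were themselves lower at adjusted p of 0.0228, 0.0287 and 0.0418 by edgeR, with log2 fold changes of -0.50, -0.68 and -0.27. Acox3 (-0.13) and Zfp652 (-0.20) did not pass (adjusted p = 0.161 and 0.0617 by edgeR).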
